A study of Rattus norvegicus with 142 samples.

Results

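The transcripts described here are those whose level was higher 1 week after postnatal day 10 in both hippocampus and cortex of normoxic rat pups. They were chosen on the deposited microarray intensities, with intensities at or below 0.0526 set to that value and log2 taken. A probe set, the group of oligonucleotides on the array that reads 1 transcript, was kept when its mean in normoxic pups was higher at 168 h than at 1 h by at least 1 on the log2 scale in each tissue, and when its 168 h mean was at least 7, an intensity of 128, in each tissue. Control probe sets of the array were left out, and 5 probe sets that met these thresholds were left out by name. This gave 95 of the 24249 probe sets on the array, called the rising probe sets here. The values of normoxic pups at 1 h and 168 h chose them, so those values are given as a description, and the tests below compare other libraries. In tests with normoxic pups, the libraries of the choice still entered the estimate of spread within groups.

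The weeks around this age are a time of fast maturation in the rat forebrain. Oligodendrocytes begin to wrap axons in myelin, astrocytes take on their mature form, synapses are added and remodelled, and inhibitory interneurons acquire their adult firing properties. Transcripts of these programmes are known to increase over this period, and seizures in the same window are studied because they can leave the brain prone to later epilepsy. No table used here links a probe set to its gene. The rising probe sets are therefore given by their identifiers, no gene or pathway is named, and the labels of the tissues could not be set against marker genes.

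The study used Long-Evans rat pups at postnatal day 10 (P10) under 3 conditions. HS+NBQX pups had hypoxic seizures induced by 15 min at 5% O2 and then received 4 intraperitoneal injections of NBQX, a blocker of AMPA-type glutamate receptors, over 48 h from 30 min after hypoxia. HS pups had the same hypoxic seizures and vehicle injections of DMSO, and noHS pups were kept in normoxia and received the same vehicle. Whole cortex and hippocampus were profiled at 1, 6, 12, 48 and 168 h, giving 142 arrays, called libraries here, from 74 pups of 11 litters, with 4 to 6 libraries in each group. In hippocampus there were 23 HS+NBQX, 23 HS and 24 noHS libraries, and in cortex 24 HS+NBQX, 23 HS and 25 noHS libraries. Each litter was killed at 1 time, so a difference between times is also a difference between litters. In whole tissue, more cells of a type and more RNA per cell cannot be told apart.

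Libraries were alike in brightness, with a median intensity between 63.8 and 79.9 and an upper quartile between 272 and 323. In the median over the rising probe sets, 2 HS pups stood above the rest of their groups. One was HS pup 2 at 6 h in hippocampus, and the other was HS pup 2 at 48 h in both tissues. The comparisons of HS with noHS at 6, 12 and 48 h are given with and without both libraries of these 2 pups. As they were picked for a high level, leaving them out lowers the HS level by construction. A 168 h litter had 13 of its libraries on the plate that held the other tissue.

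In noHS pups, the difference between 168 h and 1 h that chose the probe sets had a median of 1.55 in hippocampus (range 1.01 to 7.34) and 1.59 in cortex (1.01 to 4.43) on the log2 scale, or 2.92-fold and 3.01-fold. Over all probe sets the medians were 0.02 and -0.08. Their median level in hippocampus was 8.88 at 168 h, against 7.17 at 1 h, while cortex had 8.98 at 168 h, against 7.26 at 1 h, so most of the rising probe sets were already bright at the start. At 1 h in noHS pups, 21 of the 95 lay below the median of all probe sets in hippocampus and 19 in cortex. The thresholds cut through a continuous range. The 3 smallest differences inside the threshold were 1.009, 1.011 and 1.012 (hippocampus) or 1.014, 1.017 and 1.024 (cortex), and the 3 largest outside it, among probe sets that met all other thresholds, were 0.989, 0.964 and 0.957 (hippocampus) or 0.995, 0.992 and 0.991 (cortex). For the level at 168 h, the nearest values inside were 7.01, 7.07 and 7.14 (hippocampus) or 7.10, 7.22 and 7.26 (cortex), and the nearest outside were 6.95, 6.94 and 6.93 (hippocampus) or 6.91, 6.90 and 6.80 (cortex).

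The same probe sets were then followed in pups whose libraries had no part in the choice. These pups were littermates of the choosing noHS pups at 168 h, and most were at 1 h. A difference between litters would thus be shared with the choice and cannot be told apart from time. In HS pups, hippocampus had 93 of the 95 higher at 168 h than at 1 h, and cortex had 94, at an adjusted p under 0.05 (limma, Benjamini-Hochberg over all 24249 probe sets), and none was lower. Of the whole array, 12.1% was called higher and 12.8% lower in hippocampus, and 14.5% higher and 14.9% lower in cortex. The p-values measure the spread between pups of a group. The median difference of the rising probe sets was 1.53 in hippocampus (range 0.38 to 6.36), a 2.9-fold increase, and 1.44 in cortex (0.71 to 4.21), a 2.72-fold increase, against 0.04 and -0.06 over all probe sets. In HS pups, 92 of the 95 in hippocampus and 90 in cortex had every 168 h library above every 1 h library, which held for 8.15% and 9.22% of all probe sets. The increase passed 2-fold for 85 of them in hippocampus and 84 in cortex, and 4-fold for 23 and 14.

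HS+NBQX pups, also littermates of the choosing noHS pups, gave a second set of libraries. There, 92 of the 95 were called higher at 168 h than at 1 h in hippocampus and 94 in cortex, again with none lower, beside 9.02% of the array higher and 13.3% lower in hippocampus, and 12.3% higher and 14.0% lower in cortex. The medians were 1.49 (0.19 to 6.86) and 1.53 (0.46 to 4.96), with -0.06 and -0.07 over all probe sets. The libraries of the 2 times did not overlap for 90 of the 95 in hippocampus and 92 in cortex, against 9.45% and 10.2% of the array. In all, 92 of the 95 rising probe sets passed the test in both tissues of both hypoxic treatments, 69 of them with more than a 2-fold and 10 with more than a 4-fold difference in all 4 comparisons. Across the 95, the HS difference correlated with the noHS difference at r = 0.97 in hippocampus and 0.92 in cortex, and the HS+NBQX difference with the HS difference at 0.975 and 0.961. The 3' to 5' ratio of 3 control transcripts, a measure of RNA integrity, was higher at 168 h than at 1 h, with 1.827 against 1.442 in HS+NBQX hippocampus, 1.828 against 1.696 in HS+NBQX cortex, 1.805 against 1.672 in HS hippocampus and 1.915 against 1.66 in HS cortex (mean log2), and its part in the counts was not tested. The correlations are descriptions over 95 probe sets that share the array's design, and some may read the same gene. The noHS difference in them is the value that chose the probe sets. In hippocampus it had a median of 1.55 and a highest value of 7.34, and r without the largest values was not computed.

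**Figure D1:**
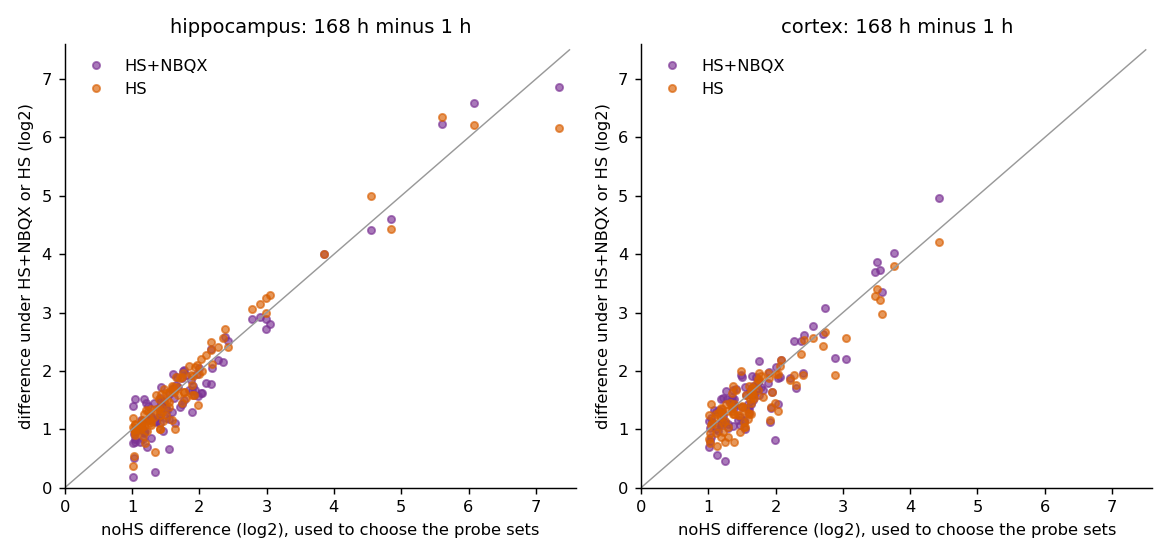
Difference between 168 h and 1 h (log2) of each of the 95 rising probe sets in HS+NBQX and HS pups (vertical) against the noHS difference that chose them (horizontal), in hippocampus and cortex. The grey line marks equal differences, and every HS and HS+NBQX point lies above 0, with the largest hippocampal values at 6.86 in HS+NBQX and 6.36 in HS.

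Ranked by the smaller of their HS increases in the 2 tissues, 2 probe sets led. In HS+NBQX pups, 1380329_AT had intensities of 638, 664, 598 and 472 at 168 h in hippocampus, against 11.3, 7.6, 0.786 and 9.79 at 1 h. In cortex the HS+NBQX intensities were 587, 478, 508, 718 and 387 at 168 h, against 30.5, 5.62, 18.8 and 25 at 1 h. No library of one time reached the other, with differences of 6.86 ± 0.775 in hippocampus and 4.96 ± 0.552 in cortex (adjusted p of 3.15e-07 and 1.19e-07). In HS hippocampus, 1380329_AT had 494, 552, 771, 601 and 612 at 168 h, against 9.07, 11.8, 6.42, 5.9 and 9.92 at 1 h. In cortex its HS intensities were 625, 516, 620, 487 and 461 at 168 h, against 58.3, 31.2, 31.7, 6.34 and 57.2 at 1 h. Here too the 2 times were far apart in both tissues, and the 1 h values of hippocampus lay near the bottom of the measured range. The HS difference was 6.17 ± 0.617 (log2, SE) in hippocampus and 4.21 ± 0.392 in cortex, with adjusted p of 2.75e-08 and 8.6e-09. These sizes depend on the scale, since with 32 added to every intensity before log2 the hippocampal differences were 3.99 in HS+NBQX and 3.96 in HS pups, and the cortical ones 3.45 and 3.11.

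The brighter of the 2, 1370434_A_AT, had hippocampal intensities of 2700, 3400, 2820, 2520 and 2570 in HS pups at 168 h, against 61.4, 64.9, 47.3, 6.79 and 57.5 at 1 h. In cortex its HS intensities were 2720, 2600, 3870, 4070 and 3680 at 168 h, against 369, 298, 281, 70.4 and 361 at 1 h. It reached a like level in both tissues at 168 h, while the cortex was already brighter at 1 h. In HS+NBQX pups the difference was 6.59 ± 0.749 (log2, SE) in hippocampus and 4.03 ± 0.448 in cortex (adjusted p of 3.39e-07 and 1.18e-07), and in HS pups 6.22 ± 0.497 and 3.8 ± 0.334 (adjusted p of 6.39e-10 and 3.59e-09). With 32 added to every intensity they were 5.35 in hippocampus and 3.78 in cortex of HS+NBQX pups, and 5.22 and 3.6 in HS pups.

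Only 3 of the 95 rising probe sets missed the test in any of these 4 comparisons, and they are named because they are few. 1387493_AT was called in none of them. Its HS intensities in cortex were 86.9, 99.9, 225, 150 and 243 at 168 h, against 77.8, 106, 130, 94.9 and 47.2 at 1 h, and the 2 times overlapped. In HS+NBQX pups the difference was 0.46 ± 0.369 in cortex and 0.27 ± 0.33 in hippocampus (SE, adjusted p of 0.401 and 0.63). In HS pups it was 0.78 ± 0.346 in cortex and 0.61 ± 0.277 in hippocampus (adjusted p of 0.0946 and 0.114). Leaving out HS pup 1 at 168 h in cortex gave 0.97 with an adjusted p of 0.0395, and without the 168 h litter on the other plate it was 0.11 (adjusted p = 0.899). 1389651_AT was called in cortex but not in hippocampus, where it differed by 0.19 ± 0.187 (SE) in HS+NBQX pups (adjusted p = 0.548) and by 0.38 ± 0.142 in HS pups (adjusted p = 0.0525). In cortex its differences were 0.55 ± 0.17 in HS+NBQX pups and 0.71 ± 0.125 in HS pups (adjusted p of 0.0155 and 8.13e-05), and the HS+NBQX one was 0.48 (adjusted p = 0.0638) without HS+NBQX pup 4 at 1 h. Without HS pup 3 at 1 h the hippocampal HS difference was 0.48 (adjusted p = 0.0147), without HS pup 1 at 1 h it was 0.47 (0.0194), and without HS pup 1 at 168 h it was 0.41 (0.0445). 1370019_AT missed the test only in the hippocampus of HS+NBQX pups. Its intensities there were 196, 183, 139 and 185 at 168 h, against 64.5, 54.4, 208 and 202 at 1 h, so 2 of the 1 h libraries lay above all those of 168 h. The difference was 0.66 ± 0.343 (SE, adjusted p = 0.183), and without HS+NBQX pup 3 at 1 h it was 0.97 (adjusted p = 0.0473).

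The 5 times are unequally spaced, so the steps between them are not rates. Taking the median over the rising probe sets in each library, hippocampal group means in HS+NBQX pups were 7.22, 7.38, 7.39, 7.75 and 8.81 (log2) at 1, 6, 12, 48 and 168 h. In HS pups they were 7.29, 7.25, 7.39, 7.67 and 8.90, and in noHS pups 7.20, 7.37, 7.56, 7.74 and 8.86. At 168 h every library of every treatment lay above all earlier ones. For noHS pups at 1 h and 168 h, the probe sets were chosen on that difference. In cortex the HS+NBQX means were 7.33, 7.42, 7.37, 7.80 and 8.93, the HS means 7.39, 7.31, 7.55, 7.76 and 8.93, and the noHS means 7.27, 7.53, 7.67, 7.90 and 8.91. The SD within these groups lay between 0.0326 and 0.368. By 48 h the median difference from 1 h was 0.427 in HS+NBQX and 0.383 in HS hippocampus, or 28.6% and 25% of the median difference at 168 h. The cortical values were 0.476 in HS+NBQX and 0.438 in HS pups, or 31.1% and 30.4%. The noHS means at 1 h and 168 h are those the choice used, so no share of their difference is given.

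**Figure D2:**
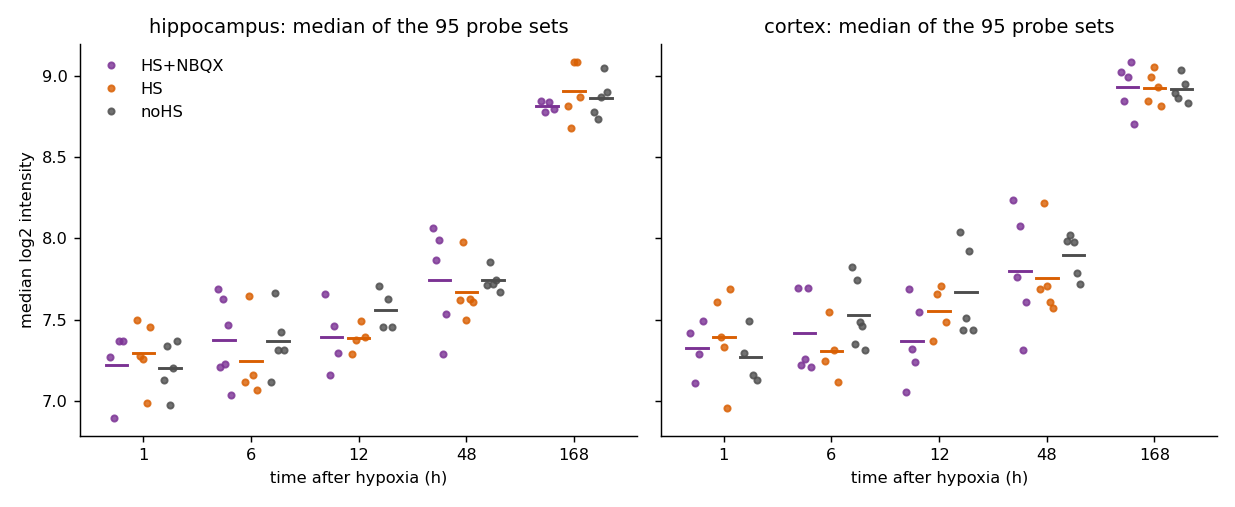
Median log2 intensity over the 95 rising probe sets in each library (points) and the mean of each group (bars), by time after hypoxia, with HS+NBQX, HS and noHS side by side at each time. The time axis is not to scale. All libraries at 168 h, between 8.68 and 9.09, lie above all libraries at earlier times, whose highest is 8.23. The noHS libraries at 1 h and 168 h were used to choose the probe sets.

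At 48 h, 5 of the 95 in HS+NBQX and 6 in HS hippocampus had passed 50% of their own 168 h difference, and in cortex 3 had in HS+NBQX and 3 in HS pups. Whether noHS pups changed between the first day and 48 h was tested by comparing libraries that had no part in the choice. The fit took its estimate of spread from all 5 times, those of the choice included. None of the 95 was called in either tissue (limma, noHS 48 h against the mean of 6 h and 12 h), beside 0.00412% of the array called lower and 0.0% higher in each tissue. At an unadjusted p under 0.05, 33 of the 95 were higher in hippocampus and 61 in cortex, with none lower, against 3.27% of the array higher and 3.36% lower in hippocampus, and 5.53% higher and 4.48% lower in cortex. A plain t-test of this contrast, with spread pooled over the 5 times, called none at an adjusted p under 0.05. At a false discovery rate of 0.25 it called 2 (2.11%) in cortex, beside 0.52% of the array. The medians were 0.209 in hippocampus and 0.325 in cortex, with 0.012 and 0.028 over all probe sets. The typical standard errors were 0.143 and 0.135. Each time stands for 2 litters, and litter and time cannot be told apart.

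After hypoxic seizures, some of the rising probe sets were called lower over 6, 12 and 48 h. In cortex their share stood above that of the array, and in hippocampus it was closer to it. Averaged over 6, 12 and 48 h, 20 of the 95 were lower and 1 was higher in HS than in noHS cortex, and 8 were lower and 1 higher in hippocampus (limma, adjusted p under 0.05). Over the array, 9.86% of probe sets were called lower and 9.67% higher in cortex, and 5.09% lower and 7.59% higher in hippocampus. The share of the rising probe sets called lower was thus 21.1% in cortex and 8.42% in hippocampus, and the share called higher was 1.05% in each. The median difference was -0.17 in cortex and -0.11 in hippocampus, against -0.02 and -0.03 over all probe sets, and 77 of the 95 in cortex and 73 in hippocampus had a negative estimate (81.1% and 76.8%, beside 53.6% and 55.1% of the array). Across both tissues, 25 were called lower in at least 1 tissue and 3 in both, and the probe set called higher was the same in both. The shares of the array for these counts across tissues were not computed, so nothing is read from them. The counts of the 2 tissues were not tested against each other.

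Each plate column held 1 treatment. With plate column as a random block, 5 of the 95 (5.26%) were called lower in cortex and 2 (2.11%) in hippocampus, beside 3.17% and 1.68% of the array, with 1 higher in each. The medians were then -0.177 in cortex and -0.108 in hippocampus, so the calls were fewer while the sizes were close to those above. In hippocampus the share called lower was then near that of the array. An alternative without HS pup 2 at 6 h and HS pup 2 at 48 h was added after the data were examined. Then 32 (33.7%) were called lower in cortex and 15 (15.8%) in hippocampus, beside 9.35% and 4.87% of the array. The medians were -0.214 and -0.175. These pups were picked for their high level over the same 95 probe sets, so more calls of lower were built in. No support is drawn from them. The pup at 6 h stood apart only in hippocampus, yet its cortex library was left out too. The mean 3' to 5' ratio was 1.753 ± 0.106 in HS and 1.809 ± 0.147 in noHS cortex (log2, SD, n = 13 and 16) and 1.724 ± 0.123 in HS and 1.822 ± 0.147 in noHS hippocampus (n = 13 and 14), and its part in the counts was not tested. The hybridisation controls added to each array averaged 9.95 ± 0.258 in HS and 9.706 ± 0.0875 in noHS cortex (log2, SD), and 9.842 ± 0.141 in HS and 9.946 ± 0.223 in noHS hippocampus, and their part was not tested either.

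By time, the median HS difference from noHS in cortex was -0.232 at 6 h, -0.148 at 12 h and -0.0826 at 48 h, with 85, 76 and 68 of the 95 below 0, beside 53.7%, 47.9% and 55.3% of the array. In hippocampus it was -0.0747, -0.151 and -0.0452, with 64, 77 and 55 below 0, beside 56%, 49.5% and 54.6% of the array. At 1 h it was 0.116 in cortex and 0.0399 in hippocampus, and at 168 h -0.00256 and 0.00975, values that share the noHS libraries used in the choice and carry no test. The medians were below 0 at 6, 12 and 48 h in both tissues. Those over all probe sets were -0.0234, 0.0134 and -0.0312 in cortex and -0.0342, 0.00332 and -0.0339 in hippocampus. At 48 h the HS median in hippocampus was thus close to that of the array. HS+NBQX pups, set against the same noHS libraries, had cortical medians of -0.162, -0.346 and -0.126 at 6, 12 and 48 h. Over all probe sets these were -0.0106, -0.0553 and -0.0575. The hippocampal medians of HS+NBQX pups were -0.0174, -0.199 and -0.0212, beside -0.0193, -0.0139 and -0.0243 over all probe sets. At 6 h and 48 h these hippocampal values were thus close to those of the array. Within litters, which held both treatments, the median HS difference was below 0 in 5 of 6 litters in cortex and in 5 of 6 in hippocampus. Both tissues came from the same 6 litters. Over all probe sets the median was also below 0 in 5 of 6 litters in hippocampus, and in fewer in cortex. In time order, cortical medians were -0.212, -0.224, -0.227, -0.0717, 0.00672 and -0.131, beside -0.0116, -0.0297, 0.0199, 0.00797, -0.0199 and -0.0263 over all probe sets. Hippocampal ones were -0.034, -0.19, -0.444, -0.0476, 0.0662 and -0.114, beside -0.0574, -0.0123, -0.000111, 0.0158, -0.0509 and -0.011. In hippocampus the -0.034 of the first litter lay above the -0.0574 of all probe sets. The hippocampal -0.444 rested on 1 noHS library. The exception in both tissues was the same 48 h litter, at 0.00672 in cortex and 0.0662 in hippocampus. It was also the litter of HS pup 2 at 48 h.

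**Figure D3:**
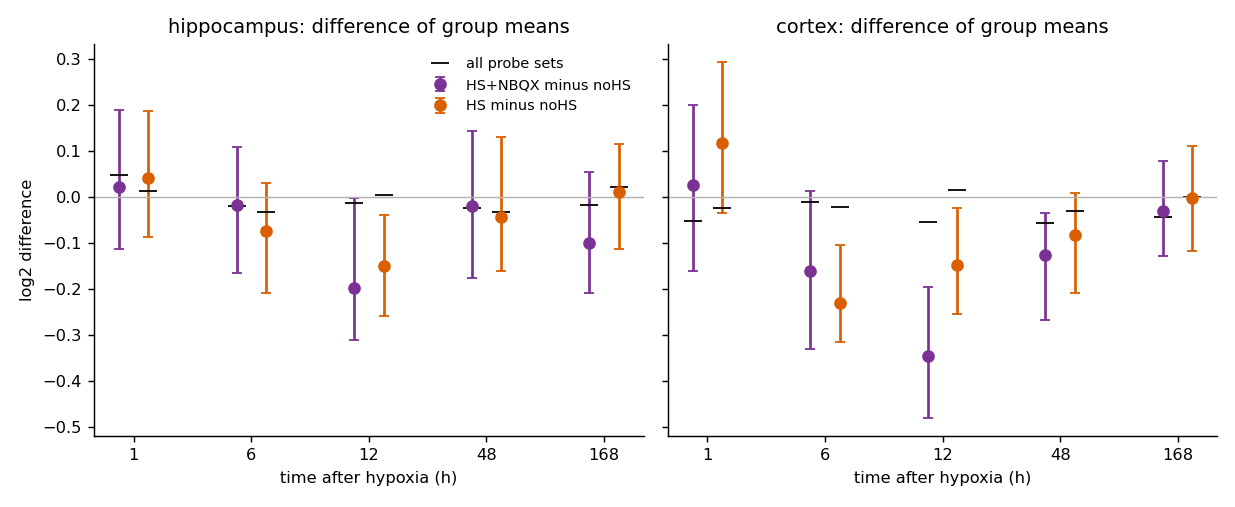
Median over the 95 rising probe sets (points) of the difference between group means, HS+NBQX minus noHS and HS minus noHS, at each time, with the 25th to 75th percentile over probe sets (bars) and the median over all probe sets (black dashes). The bars show spread over probe sets, not an error between pups. The cortical medians of HS minus noHS lie at -0.232, -0.148 and -0.0826 at 6, 12 and 48 h and at -0.00256 at 168 h.

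The probe set that was higher after hypoxic seizures in both tissues was 1395104_AT. In hippocampus its HS intensities were 292, 345, 327 and 307 at 6 h, 300, 329, 390 and 342 at 12 h, then 418, 505, 388, 343 and 366 at 48 h. Its noHS intensities were 194, 268, 250, 278 and 205 at 6 h, 263, 247, 270 and 212 at 12 h, then 256, 300, 317, 296 and 251 at 48 h. At each of the 3 times every HS library lay above every noHS library. The difference was 0.46 ± 0.081 (log2, SE, adjusted p = 4.33e-05), a 1.38-fold increase. In cortex its HS intensities were 200, 269, 203 and 163 at 6 h, 210, 241, 259 and 217 at 12 h, then 276, 348, 275, 296 and 251 at 48 h. The noHS intensities ran over 129, 159 and 210 at 6 h (lowest, median, highest), and were 199, 130, 152, 189 and 153 at 12 h, then 194, 192, 202, 192 and 146 at 48 h. The groups overlapped at 6 h and were apart at 12 h as at 48 h, and the difference was 0.49 ± 0.093 (adjusted p = 0.000108). It was called under every alternative tried in both tissues, and without the 2 HS pups it was 0.419 in hippocampus and 0.425 in cortex. At 168 h, with noHS libraries that were used in the choice, it stood at 805, 744, 757, 761 and 741 in HS and 528, 500, 509, 546 and 477 in noHS hippocampus, a description with no test.

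**Figure D4:**
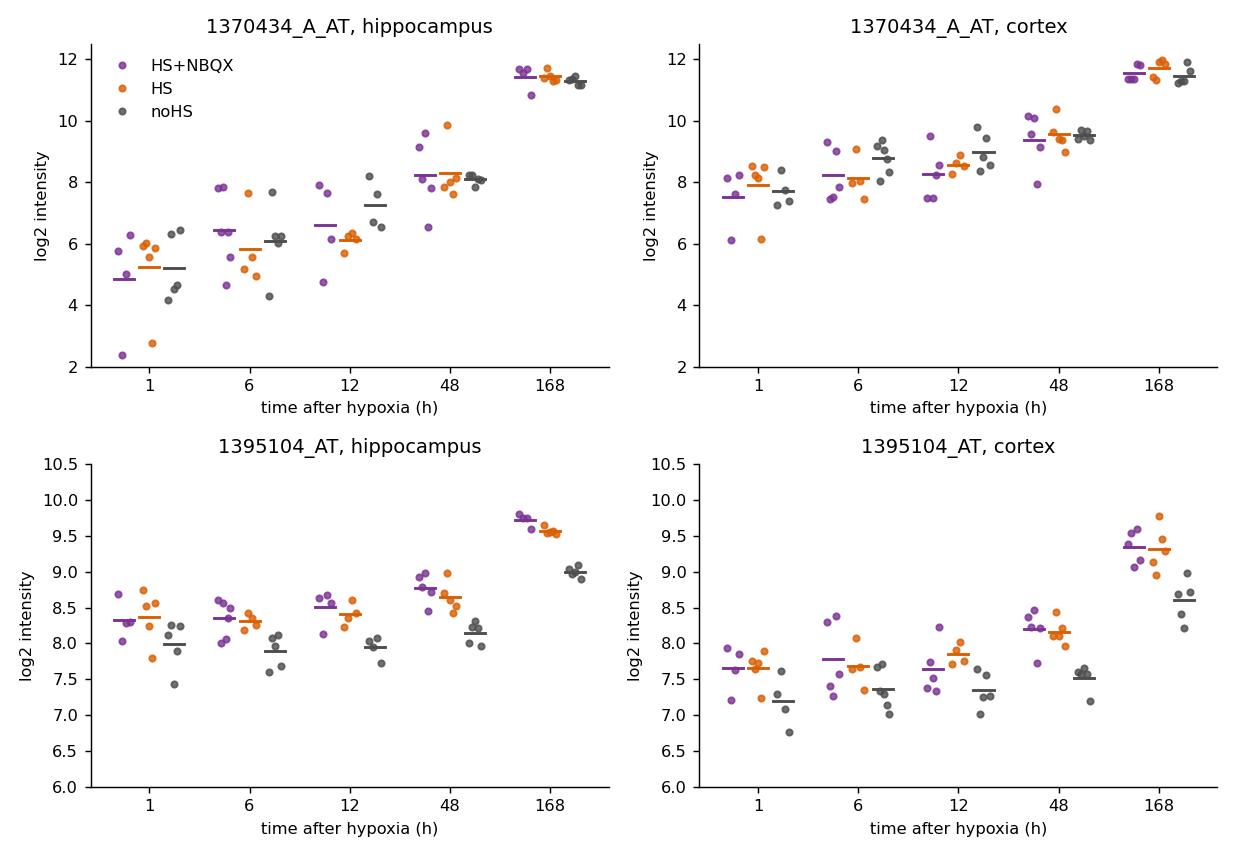
Log2 intensity of 1370434_A_AT (top) and 1395104_AT (bottom) in every library (points) with group means (bars), by time after hypoxia, for HS+NBQX, HS and noHS. The time axis is not to scale and the vertical ranges differ between rows. For 1395104_AT in hippocampus the HS points lie above all noHS points at 6, 12, 48 and 168 h.

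The largest called decrease in cortex was that of 1387010_S_AT. Its HS intensities were 369, 531, 221 and 246 at 6 h, 273, 450, 402 and 329 at 12 h, then 283, 646, 331, 454 and 472 at 48 h. In noHS cortex they ran over 305, 472 and 507 at 6 h (lowest, median, highest), and were 524, 518, 521, 558 and 522 at 12 h, then 533, 611, 622, 611 and 745 at 48 h. HS and noHS were apart at 12 h and overlapped at 6 h and 48 h, where the highest HS library was that of pup 2 at both times. The difference was -0.51 ± 0.144 (log2, SE, adjusted p = 0.00831), and -0.65 (adjusted p = 0.000749) without those 2 pups. With plate column as a random block it was -0.52 with an adjusted p of 0.0773. Next was 1383654_A_AT, with HS intensities in cortex of 92.2, 120, 119 and 122 at 6 h, 140, 137, 138 and 127 at 12 h, then 169, 250, 185, 157 and 159 at 48 h. In noHS cortex it had 113, 158 and 215 at 6 h (lowest, median, highest), 224, 189, 170, 160 and 152 at 12 h, then 244, 251, 229, 210 and 204 at 48 h. All 4 HS libraries at 12 h lay below the noHS libraries, and at 48 h all but pup 2 did. The difference was -0.4 ± 0.081 (SE, adjusted p = 0.000276), a 1.32-fold decrease that was called under every alternative, and -0.448 without the 2 HS pups.

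In hippocampus the 2 largest called decreases were those of 1391575_AT and 1387811_AT. The first had HS intensities of 59.3, 130, 88 and 111 at 6 h, 141, 126, 156 and 96.1 at 12 h, then 131, 237, 122, 106 and 213 at 48 h. In noHS hippocampus it had 74.8, 198, 152, 147 and 117 at 6 h, 238, 179, 135 and 183 at 12 h, then 247, 169, 191, 182 and 187 at 48 h. HS and noHS overlapped at each of the 3 times. The difference was -0.44 ± 0.147 (log2, SE, adjusted p = 0.0388). This call was lost without any 1 of 13 of the 27 libraries, with estimates that stayed between -0.438 and -0.368 and adjusted p between 0.0519 and 0.0979. Without the 2 HS pups it was -0.546 (adjusted p = 0.00956). 1387811_AT differed by -0.31 ± 0.086 (SE, adjusted p = 0.0115). HS and noHS overlapped at 6 h (178 to 257 against 156 to 299) and at 12 h (216 to 253 against 247 to 333). At 48 h the HS intensities were 206, 243, 181, 249 and 278, against 454, 332, 306, 321 and 281 in noHS hippocampus. There the groups did not overlap, with 278 as the highest HS and 281 as the lowest noHS value. With plate column as a random block the difference of 1387811_AT was -0.289 with an adjusted p of 0.094, and without the 2 HS pups -0.345 (0.00676).

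HS+NBQX was then set against HS, which asks whether NBQX after the seizures went with another level. Averaged over the 5 times, 1 of the 95 was called lower in HS+NBQX than in HS hippocampus and none in cortex, where 1.57% and 2.21% of the array were called lower (higher, 2.65% in hippocampus and 0.466% in cortex). At an unadjusted p under 0.05, 4 were higher and 7 lower in hippocampus, beside 9.24% and 6.87% of the array, and none was higher and 7 lower in cortex, beside 4.46% and 13.1%. The methods' ANOVA called none of them in either tissue at 0.05, and 7 (7.37%) in hippocampus and 3 (3.16%) in cortex at a false discovery rate of 0.25, beside 13.3% and 14.9% of the array. The median differences were 0.01 in hippocampus and -0.05 in cortex. The 95% interval of a typical probe set reached 0.159 and 0.16 to either side. That interval is not adjusted for the number of probe sets, and the adjusted test needs larger differences. Estimates as large as 0.348 in hippocampus and -0.321 in cortex were not called. The probe set called was 1387010_S_AT, whose hippocampal intensities over HS+NBQX libraries ran over 103, 179 and 770 (lowest, median, highest), against 135, 246 and 1120 over HS libraries. Its difference was -0.38 ± 0.105 (log2, SE, adjusted p = 0.0276). At 168 h alone it ran over 442, 523.5 and 770 in HS+NBQX and 449, 830 and 1120 in HS hippocampus, which overlapped. This call was lost without the 168 h litter on the other plate, at -0.277 with an adjusted p of 0.11, with plate column as a random block, at -0.358 (adjusted p = 0.312), without HS pup 3 at 6 h, at -0.355 (0.0503), and without HS+NBQX pup 2 at 1 h, at -0.352 (0.0512).

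At 168 h alone, none of the 95 differed between HS+NBQX and HS pups in either tissue by limma, where 0.00825% of the array was called in each direction in hippocampus and 0.00412% in cortex. At an unadjusted p under 0.05, 3 were lower in hippocampus, beside 4.17% of the array lower and 3.04% higher, and 1 was higher in cortex, beside 2.25% higher and 6.18% lower. A plain t-test, with spread pooled over both treatments and all times, called none of them at 0.05. The medians were -0.09 in hippocampus and -0.02 in cortex, and the 95% interval of a typical probe set reached 0.359 and 0.344 to either side. In hippocampus 3 of the 95 had every HS+NBQX library below every HS library, which held for 1.22% of the array, and 70 had a negative estimate (73.7%, beside 55.6% of the array). The difference between 168 h and 1 h was also set against itself between the treatments. None of the 95 was called in either tissue in that interaction, and 0.0% of the array was. At an unadjusted p under 0.05, 1 was lower in hippocampus, beside 4.65% of the array lower and 2.01% higher, and 1 was higher in cortex, beside 1.8% higher and 2.31% lower. A plain t-test of the interaction, with the same pooled spread, called none at 0.05. The limma interval of the interaction reached 0.508 and 0.502 to either side, wider than in the comparison at 168 h alone. At 12 h in cortex the HS+NBQX medians were 0.199 lower than those of HS pups, with 87 of the 95 below 0, while 63.3% of all probe sets were below 0 with a median of -0.0773. That value was singled out after the data were examined and was not tested.

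The increase under HS was set between the tissues. Of the 95 rising probe sets, 12 had a larger and 5 a smaller difference between 168 h and 1 h in hippocampus than in cortex (limma, interaction term, adjusted p under 0.05), beside 5.48% and 6.57% of the array. With every array at a common median these counts were 10 and 7, beside 3.87% and 8.41% of the array. Across the 95 the differences in the 2 tissues correlated at r = 0.823, and 54 were larger in hippocampus. Tissue was nearly tied to plate. Without the 168 h litter whose libraries lay on the other tissue's plate, 2 were larger and 2 smaller, beside 0.924% and 0.301% of the array, and the same counts came with plate as a fixed factor. With plate column as a random block the counts were 9 and 0, beside 2.35% and 3.71%. The count was 10 without HS pup 4 or pup 5 at 168 h in hippocampus or without HS pup 5 at 168 h in cortex, and 11 without HS pup 1 or pup 5 at 1 h in hippocampus or HS pup 4 at 168 h in cortex.

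The 2 largest called positive interactions are named first. 1370500_A_AT had HS intensities of 1570, 1840, 1460, 1320 and 1260 at 168 h in hippocampus, against 35.1, 59.7, 35.3, 0.984 and 26 at 1 h. In cortex it had 1230, 1010, 2050, 2130 and 1500 at 168 h, against 210, 168, 139, 65 and 193 at 1 h. At 168 h the tissues overlapped, and at 1 h every hippocampal library lay below every cortical one. The interaction was 2.95 ± 0.8 (log2, SE, adjusted p = 0.012). 1370434_A_AT, whose values are given above, followed with 2.42 ± 0.645 (adjusted p = 0.0109). Without the litter on the other plate the estimates were 3.61 and 2.86, with adjusted p of 0.107 and 0.115. With 32 added to every intensity they were 1.52 and 1.62 (adjusted p of 0.0131 and 0.0175). The largest called negative interaction was that of 1391575_AT, with HS intensities of 406, 398, 437, 370 and 371 at 168 h, against 167, 137, 140, 62.5 and 163 at 1 h, in hippocampus. In cortex it had 129, 119, 160, 169 and 160 at 168 h, against 24.2, 20.4, 25.9, 26.1 and 27 at 1 h, so it was brighter in hippocampus at both times. Its interaction was -0.93 ± 0.297 (SE, adjusted p = 0.0334). With 32 added to every intensity it was -0.24 (adjusted p = 0.512). 1386296_AT, at -0.77 ± 0.248 (adjusted p = 0.0349), had 1360, 1690, 1350, 1300 and 1270 at 168 h, against 881, 828, 411, 520 and 631 at 1 h in HS hippocampus. Its cortical intensities were 1670, 1650, 2300, 2240 and 1930 at 168 h, against 663, 511, 589, 326 and 563 at 1 h. Without the litter on the other plate the interactions of 1391575_AT and 1386296_AT were -0.667 and -0.416, with adjusted p of 0.533 and 0.669, and leaving out single libraries lost the call of 1391575_AT in 9 of 20 fits (adjusted p 0.0506 to 0.0746) and that of 1386296_AT in 10 of 20 (0.0501 to 0.0886).

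Pups of a group differed in the level of the rising probe sets, and their 2 tissues deviated together. For the 68 pups with both tissues, the deviation of a pup's median level from its group mean in hippocampus and in cortex correlated at a Pearson r of 0.602 and a Spearman rho of 0.553, and r was 0.542 without the 2 pups farthest from the median in hippocampus. The same correlation for the median of all probe sets was 0.0616. By treatment, r was 0.427 in 22 HS+NBQX pups, 0.806 in 23 HS pups and 0.694 in 23 noHS pups. By time, it was 0.855 at 1 h, 0.53 at 6 h, 0.00293 at 12 h, 0.916 at 48 h and 0.284 at 168 h, over 12 to 15 pups each. Without the 2 farthest pups these values were 0.179, 0.736 and 0.647 by treatment and 0.738, 0.216, 0.884, 0.843 and 0.475 by time, so those at 6 h and 12 h and in HS+NBQX rest on few pups. These correlations are descriptions and carry no p. The 2 tissues of a pup lay on separate positions of the 2 plates but in the same column number for 68 of 68 pups, and the part of plate column was not tested. The weight of 72 pups at P10 had little relation to the deviation, at r = 0.0572 and rho = 0.0465.

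At 48 h, the libraries of one litter had mean levels of 7.971 in HS+NBQX, 7.8 in HS and 7.762 in noHS hippocampus, against 7.408, 7.579 and 7.707 in the other litter. In cortex these means were 8.024, 7.95 and 7.994 in the first litter, against 7.46, 7.628 and 7.755 in the other, with 2 or 3 pups in each. The first litter was higher in all 6 pairs, and with HS+NBQX pups its lowest library lay above the highest of the other litter in both tissues. The spread of pups about their group means was 0.112 (SD, log2) at 168 h, smaller than the 0.187 to 0.225 at the earlier times. Single probe sets were as variable as others on the array, with a median within-group SD of 0.286 for the rising ones and 0.283 for all in hippocampus, and 0.285 and 0.279 in cortex.

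Of the 95 identifiers, 85 end in AT, 9 in A_AT and 1 in S_AT, where the last 2 endings mark probe sets that can bind several transcripts of one gene or related genes. Among the probe sets of the array that are not controls, 94.2% end in AT, 4.02% in A_AT and 0.951% in S_AT. Both named probe sets with a larger increase in hippocampus and both named ones that were lower in HS cortex carry such an ending. Values of probe sets of this kind may sum several transcripts.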

How the data were processed

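The 142 deposited columns hold intensities on a linear scale. The authors summarised HT Rat Focus arrays with MAS5, rescaled each array linearly so that present-call intensities share a 75th percentile, and left out 2 scans for a potential tissue swap. For MAS5 no version was given in the sources used here. Groups came from the sample labels, and plate positions from the study's description of its scans. Columns of other samples were not present.

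Intensities at or below 0.0526 were set to it (99 values), and log2 was taken. limma 3.58.1 in R 4.3.3 (lmFit, eBayes with trend) was fitted over all 24249 probe sets, the 66 control ones included, on the libraries of each comparison, with 1 mean per treatment and time, two-sided tests and Benjamini-Hochberg adjustment (threshold 0.05). Differences over several times weight the times equally. Python 3.11.15 with numpy 2.4.6 and pandas 2.3.3 did the rest. On simulated data with 100 changed probe sets per size, changes of 0.5 and 1 (log2) were recovered for 54 and 100 in HS hippocampus at 168 h against 1 h, 46 and 89 in HS cortex, 88 and 100 for HS against noHS in hippocampus, 91 and 100 in cortex, 57 and 96 for HS+NBQX against HS at 168 h in hippocampus, 56 and 95 in cortex, and 34 and 85 for the tissue interaction. The number of arrays limits the precision.

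The probe sets and gene lists were chosen with earlier results of these data known. Named probe sets are the largest called differences, cut to 2 in each direction because they carry no gene names, and those that missed the test in 168 h against 1 h. Gene lists and promoter sequences could not be used, since no table used here pairs probe sets with genes. Alternatives were quantile normalization, a common median, a pseudocount of 32, dropping the dimmest 40 percent of probe sets, eBayes without trend, the methods' t-test or ANOVA, blocks for replicate number, litter, animal, plate and plate column, all 3 treatments in one fit, and leaving out libraries or the litter on the other plate.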

Additional observations from a re-analysis of the deposited data

Results flagged for a closer look

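In the median level of the rising probe sets, 3 of 30 groups held a library far from the rest by Dixon's test, which chance gives in about 1 group in 20. In hippocampus, HS pup 2 at 6 h had 7.644 (log2), against 7.066 to 7.16 in the other HS pups. HS pup 2 at 48 h had 7.977 in hippocampus, against 7.5 to 7.629 in the others, and 8.214 in cortex, against 7.57 to 7.707, so the same pup stood apart in both tissues.

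The difference between 168 h and 1 h in HS pups differed between hippocampus and cortex by a tested interaction for 17 of the 95 rising probe sets (17.9%), beside 12% of the array. The count was 4 (4.21%) without the 168 h litter on the other plate or with plate as a fixed factor, beside 1.22% and 0.664% of the array. The named ones were 1370500_A_AT at 2.95 (adjusted p = 0.012, limma), 1370434_A_AT at 2.42 (0.0109), 1391575_AT at -0.93 (0.0334) and 1386296_AT at -0.77 (0.0349), hippocampus minus cortex. None of these 4 was called without that litter (adjusted p of 0.107, 0.115, 0.533 and 0.669) or with plate as a fixed factor (0.0979, 0.105, 0.501 and 0.648).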

How the results depend on the processing

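The counts for 168 h against 1 h kept within 1.5 times of their value under every alternative, in HS and HS+NBQX pups of both tissues, and no named probe set reversed. Leaving out 1 library gave 93 to 94 in HS hippocampus, 91 to 93 in HS+NBQX hippocampus, 93 to 94 in HS cortex and 92 to 94 in HS+NBQX cortex. For noHS 48 h against 6 h and 12 h it gave 0 to 1 in each tissue. The 1 came without pup 2 at 6 h in hippocampus or pup 3 at 6 h in cortex, which are the same animal. There the false discovery rate of 0.25 gave 2 in cortex. For HS against noHS, leaving out 1 library gave 6 to 14 in hippocampus and 16 to 29 in cortex. The hippocampal 6 came without noHS pup 1 at 12 h or HS pup 3 at 48 h, and the 14 without HS pup 2 at 6 h. In hippocampus this count was 14 (14.7%, beside 14.0% of the array) at a common median. An ANOVA contrast over these 3 times gave 22 (23.2%, beside 29.9%) at a false discovery rate of 0.25. The count was 3 (3.16%, beside 6.47%) with plate column as a random block and 16 (16.8%, beside 11.9%) without the 2 HS pups. In cortex it was 44 (46.3%, beside 37.3%) at that rate. It was 6 (6.32%, beside 8.35%) with plate column and 33 (34.7%, beside 18.5%) without the 2 HS pups. For HS+NBQX against HS over 5 times in hippocampus, leaving out 1 library gave 0 to 3 (3 without HS pup 4 at 1 h, 0 without HS pup 3 at 6 h or HS+NBQX pup 2 at 1 h, 2 without HS pup 1 at 6 h or HS+NBQX pup 4 at 1 h, pup 4 at 6 h, pup 1 at 12 h, or pup 1 or 3 at 48 h). The count was 2 with quantile normalization or the replicate block, 3 at a common median, without dim probe sets or with litter as a fixed block, 7 at a false discovery rate of 0.25, and 0 with eBayes without trend, the methods' ANOVA, all 3 treatments in one fit, plate column or without the litter on the other plate. In cortex it was 0 in each such fit, 1 with litter as a fixed block and 3 at that rate. At 168 h and for the interaction of treatment and time it was 0 in each tissue throughout. For the tissue interaction, leaving out 1 library gave 10 to 20, a false discovery rate of 0.25 gave 40 (42.1%, beside 32.3% of the array), plate as a fixed factor 4, plate column 9 and leaving out the litter on the other plate 4. The 2 HS pups were picked for high levels of these probe sets, so more lower calls without them were built in. The cause of the other shifts was not tested. Replicate numbers did not pair the libraries. Same-numbered libraries of HS and noHS had a median correlation of deviations of -0.0217 (hippocampus) and 0.0286 (cortex). The replicate block gave 10 and 22 calls for HS against noHS. With a pseudocount of 32 the median difference of 168 h minus 1 h was 1.24 in HS+NBQX and 1.3 in HS hippocampus, and 1.33 in HS+NBQX and 1.24 in HS cortex.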
